A study of Mus musculus with 185 samples.

Results

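Fabp5 and 8 other genes of lipid handling were followed in single epidermal Langerhans cells (LCs) of 2 origins. The 9 genes are Fabp5, Fabp4, Cd36, Lpl, Apoe, Abca1, Abcg1, Plin2 and Scd2, of 45661 genes in the count table. They were chosen by results of these same cells, in which the Fabp5 level of the 2 origins stood apart, so the values below describe the genes and carry no test. Of the 9 genes, 8 had a read in the cells used, and 5 were read in 25% or more of an origin's cells.

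The cells came from bone marrow chimeras. CD45.1 Cd207DTR hosts, which carry the diphtheria toxin (DT) receptor at the Cd207 locus, were lethally irradiated and given CD45.2 wild-type bone marrow. DT was given 2 months later at 5 ng per gram of body weight, and the cells were sorted 2 months after that. Host cells are embryo-derived LCs (eLCs), which carry the Cd207DTR allele, and donor cells are monocyte-derived LCs (moLCs), whose Cd207 is wild type, so that origin, irradiation and the Cd207 allele cannot be told apart. Both origins were sorted as CD11c+ CD11b+ CD24+ MHCII+ CD326+ cells. After 3 moLCs with a mitochondrial share of reads over 5% were dropped, 182 cells remained, 67 moLCs on plate 1 and 36 on plate 2, and 79 eLCs (29 and 50). The highest mitochondrial share kept was 3.89% and the lowest left out was 9.97%.

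The cells kept had 432614 to 4525429 reads on genes. The median moLC had 2948819 reads on 4026 genes and the median eLC 2779080 reads on 4488. The labels tie no cell to an animal. Each origin therefore counts as 1 sample, with no p-value. Levels are the reads of a gene summed over the cells of an origin, per 1000000 reads of those cells (CPM), and ratios are moLC over eLC on the log2 scale. All intervals are at 95% and cover counting error only. Those of levels and ratios are too narrow even for that, because reads are not molecules in this assay and 82.8% of the values above 0 were even numbers, among them all 36 Fabp5 values above 0. Those of shares count cells and take them as independent, although the animals are not known. Every LC marker of the fixed list was read in both origins. Cd207, the langerin gene, reached 26237 CPM in moLCs but 2159 CPM in eLCs, which carry the Cd207DTR allele. Of the 21 keratinocyte markers, 6 had no read in any cell (Krt15, Krt1, Krt6a, Dsg3, Dsp and Ivl), and the summed list ranged from 0 to 744 CPM over moLCs (median 17.6) and from 0 to 842 CPM over eLCs (median 61.8). Of the 7 adipocyte markers, 6 had no read in either origin, and the highest cell had 63.1 CPM of the list. The endothelial, melanocyte and T cell lists had a median of 0 in each origin, and 5, 5 and 3 of their 7 genes had no read in any cell. The larger sum in eLCs came from Dmkn, at 46.1 CPM in moLCs against 114 CPM in eLCs. Without Dmkn the sum of the list was higher in moLCs, 39.5 against 17.6 CPM (32.9 and 14.8 on plate 1, 51.8 and 19.4 on plate 2), with 12 of its genes higher in moLCs, among them Krt14 (14.4 against 3.49 CPM) and Krt5 (4.82 against 0.533 CPM), and 2 higher in eLCs. By plate, 9 of these genes were higher in moLCs on each, and 2 (plate 1) and 4 (plate 2) in eLCs. Krt14 kept its direction, with log2 ratios of 1.52 on plate 1 and 2.71 on plate 2. Krt5 did not, at 7.76 and -4.96, and few cells held it (2.91% of the moLCs against 1.27% of the eLCs). The sum without Dmkn, though not each gene, therefore moved in the same direction as Fabp5, which keratinocytes also express. Over the 182 cells, Spearman's rho with Fabp5 was -0.16 for the whole list and -0.03 without Dmkn, as a description. The 3 moLCs with the most Fabp5 reads (2923, 1713 and 1074 CPM of Fabp5) had 17.5, 8.14 and 0 CPM of the whole list, against the moLC median of 17.6. Without Dmkn the moLC median was 0 CPM, so the whole-list values do not show where these cells stood for the other genes. The part of keratinocyte RNA in the Fabp5 reads of any cell was not tested.

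Fatty acids are poorly soluble in water, and cells move them with binding and transport proteins. CD36 takes up fatty acids and lipoproteins at the membrane, lipoprotein lipase frees fatty acids from circulating triglycerides, and small fatty acid binding proteins (FABPs) carry them through the cytoplasm. Cholesterol leaves the cell through the transporters ABCA1 and ABCG1 to acceptors such as apolipoprotein E, while perilipin 2 coats the droplets in which neutral lipid is stored and stearoyl-CoA desaturases introduce the double bond of oleate. FABP5 is the epidermal member of its family, known from keratinocytes, and FABP4 is its relative of adipocytes and macrophages.

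Fabp5 lies at chr3:10012548-10016607 on the plus strand (GRCm38), and Fabp4 at chr3:10204088-10208576 on the minus strand, beside Pmp2, Fabp9 and Fabp12. Because Fabp5 has processed copies elsewhere in the genome, its reads can be shared with them. A single 75 base read cannot tell Fabp5 from Gm6166, a processed pseudogene at chr9:57483963-57484371, over 110 of the 3636 stretches of that length in Fabp5 transcripts, nor from Gm14328, another processed pseudogene, over 50. Of the 408 coding bases of Fabp5, 402 stood in runs that Gm6166 shares. The 100 bases below, coding positions 141 to 240 in exon 2 of 4, are shown because a read from them is assigned by 1 base. They are given 5′ to 3′ from GENCODE transcripts, from chr3:10015032-10015131 and chr9:57484103-57484202 on the plus strand, with the base that differs in capitals.
Fabp5: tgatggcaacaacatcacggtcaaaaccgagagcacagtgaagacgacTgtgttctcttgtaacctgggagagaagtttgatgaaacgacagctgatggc
Gm6166: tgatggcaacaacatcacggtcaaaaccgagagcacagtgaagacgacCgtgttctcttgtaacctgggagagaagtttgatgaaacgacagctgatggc
Few reads were counted on these copies. Gm6166 was read in 14 moLCs and 3 eLCs, all of them cells with Fabp5 reads, and its total was 0.505% of that of Fabp5. Gm14328 had 57 reads in 12 moLCs and 2 in 1 eLC, and Fabp5l2, a gene named for Fabp5, had 52 in 11 moLCs and 2 in 1 eLC. How many reads went from one locus to another was not tested.

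Fabp5 was higher in moLCs than in eLCs, on each plate. It was read in 28 moLCs, 27.2% of them (exact interval 18.9 to 36.8%), and in 8 eLCs, or 10.1% (4.47 to 19%). Over single moLCs the level ran from 0 to 2923 CPM with a median of 0, and over eLCs from 0 to 86.3 CPM with a median of 0. Most cells of each origin were therefore at 0, and the origins overlapped there, while 14 moLCs were above the highest eLC. The mean of the cells was 87.8 ± 354 CPM (SD over cells) in moLCs and 4.96 ± 16.8 CPM (SD over 79 cells) in eLCs, a spread that is wider than the mean in each.

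Summed over cells, Fabp5 had 21850 reads in moLCs, or 72.7 CPM (Poisson interval 71.8 to 73.7), and 1120 in eLCs, or 5.14 CPM (4.84 to 5.45). The log2 ratio was 3.82 (3.74 to 3.91), a 14.1-fold higher level in moLCs. On plate 1 it was 64.5 against 2.43 CPM, a log2 ratio of 4.73, and 21 of 67 moLCs (31.3%) were Fabp5-positive against 3 of 29 eLCs (10.3%). On plate 2 it was 88.2 against 6.97 CPM, a log2 ratio of 3.66, and 7 of 36 moLCs (19.4%) against 5 of 50 eLCs (10%) had a read. Within each plate the intervals of the shares overlapped (20.6 to 43.8% against 2.19 to 27.4%, and 8.19 to 36% against 3.33 to 21.8%). Over all cells the share was 17.1 percentage points higher in moLCs (Newcombe interval 5.54 to 27.6). This interval takes cells as independent and is no test, because Fabp5 was chosen on this contrast.

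**Figure D1:**
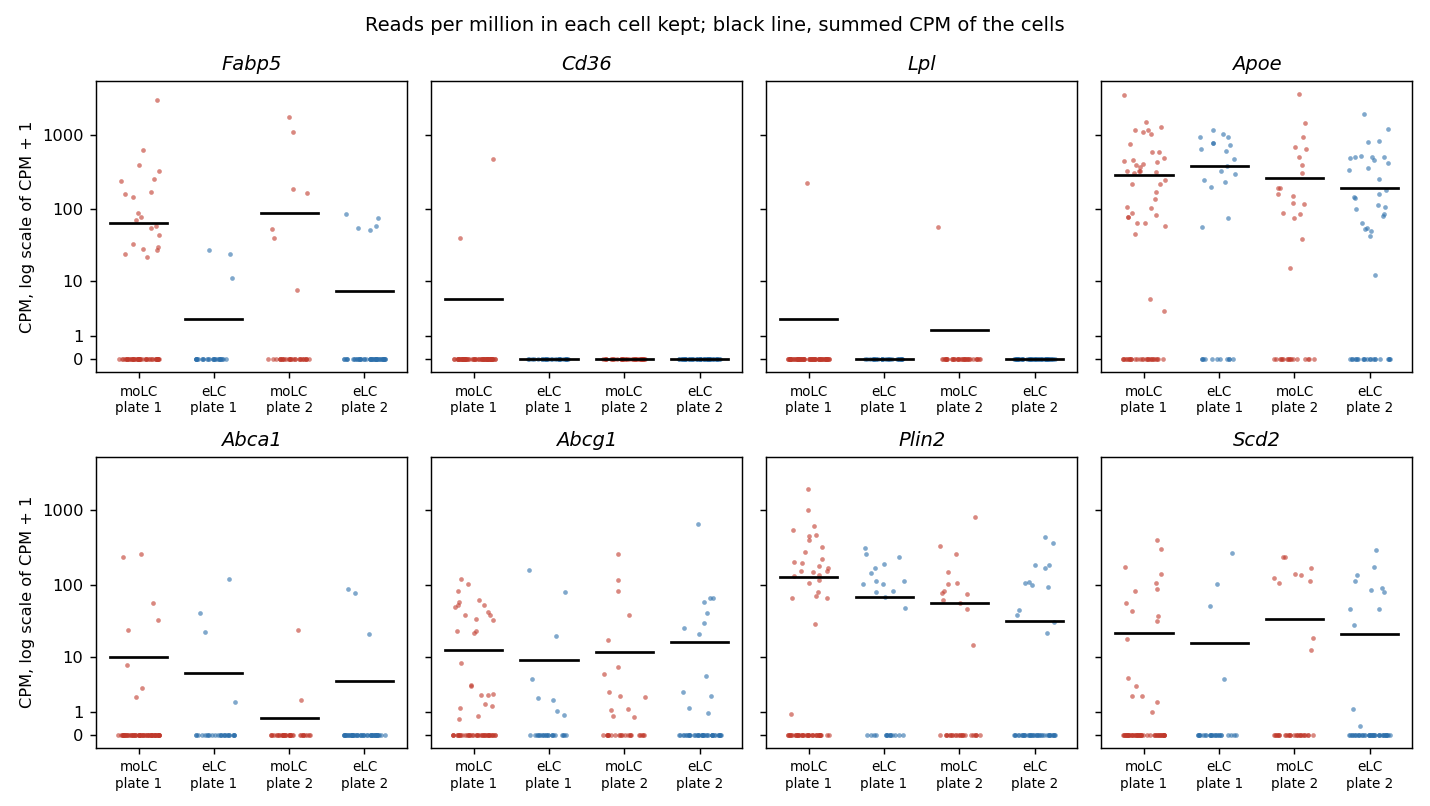
Level of the 8 genes with a read in each of 182 cells (points), in CPM on a log scale of CPM + 1, by origin and plate, with the summed CPM of the cells as a black line. In Fabp5, 14 moLCs lie above the highest eLC at 86.3 CPM, and in Cd36 and Lpl all reads come from 2 moLCs each.

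The shares stayed close to these at equal depth. After each cell was thinned to 2052367 reads, with 7 moLCs and 11 eLCs left out as shallower, 26 of 96 moLCs (27.1%) had a Fabp5 read, as did 7 of 68 eLCs (10.3%). The lowest Fabp5 count above 0 was 30 in moLCs and 42 in eLCs. Among the cells with a read, the median was 82.7 CPM in moLCs and 53.7 CPM in eLCs.

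The summed Fabp5 level, in contrast, rested on few moLCs. The top moLC, moLC 11 of plate 1 (cells are numbered within their origin), held 6004 of the 21850 reads (27.5%), moLC 95 held 5050 and moLC 98 held 2866, and the top 5 held 71.5%. At least 50% of the reads lay in 2 cells. Among 1770 genes read in 20 to 35% of the moLCs, the top cell held a median of 11.9% of the reads (quartiles 9.64 and 15.2%), so that Fabp5 depended on its top cell more than most genes read in such a share of cells. On plate 1 moLC 11 held 47.5% of the reads, and on plate 2 moLC 95 held 54.9%. In eLCs the top cell, eLC 68, had 260 reads, 23.2% of the total. With each cell left out in turn, the log2 ratio lay between 3.37 (without moLC 11) and 4.18 (without eLC 68).

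Fabp5 met a size rule with 3 parts, namely reads in 25% or more of an origin's cells, a 2-fold or larger difference of summed CPM, and that same direction and size on plate 1 and on plate 2. It was the only one of the 9 genes to do so. Of the 6522 genes read that widely, 132 met the rule (2.02%), 53 of them higher in moLCs (0.813%) and 79 in eLCs (1.21%), and 112 (1.72%) also kept a 2-fold difference whichever cell was left out, as Fabp5 did. Because Fabp5 was chosen on this contrast, nothing is read from its place among them.

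**Figure D2:**
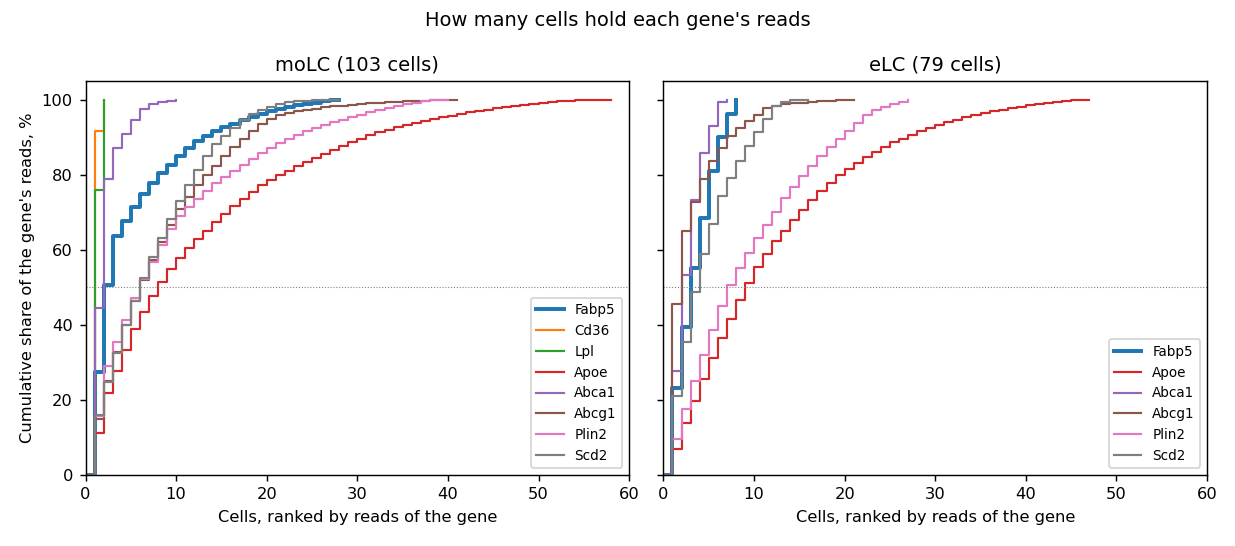
Cumulative share of each gene's reads (y axis, %) over cells ranked by their reads of that gene (x axis), in moLCs and in eLCs, with a dotted line at 50%. The Fabp5 curve of moLCs passes 50% at 2 cells, the Apoe curve at 8.

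The other FABPs gave little signal. Fabp4 had no read in any of the 182 cells. At 3 cells over the number of cells, a count of 0 allows a share of up to 2.91% in moLCs and 3.80% in eLCs, and the exact upper limits are 3.52% and 4.56%. Fabp9, Fabp12 and Pmp2, its neighbours on chromosome 3, had none either, and 8 of the 15 genes of the fixed FABP list had no read in either origin. The list also holds retinoid and acyl-CoA binding proteins, and over all cells its 2 most abundant genes were acyl-CoA binding genes, although Fabp5 was above Acbd3 in moLCs. Dbi, the acyl-CoA binding protein, stood at 156 CPM in moLCs against 290 CPM in eLCs (log2 ratio -0.89, with -0.83 on plate 1 and -0.62 on plate 2). Acbd3 was at 60.3 and 48.7 CPM, a log2 ratio of 0.31. Fabp7, the brain FABP, was read in 17.5 and 15.2% of the cells at 3.21 and 3.71 CPM, with plate ratios of opposite sign (0.52 and -2.14).

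The uptake genes Cd36 and Lpl were read in moLCs alone, and in 2 cells each. Cd36 (chr5:17781690-17888801) had 965 reads in moLC 11 (470 CPM) and 89 in moLC 2 (40.3 CPM), both of plate 1, and none in 79 eLCs (exact upper limit of the share 4.56%). Lpl (chr8:68880491-68907448) had 462 reads in moLC 11 (225 CPM) and 146 in moLC 94 of plate 2 (56.6 CPM), and none in eLCs. Set against a floor of 3 reads over all eLCs, the summed level in moLCs was 255-fold higher for Cd36 and 147-fold higher for Lpl. Without moLC 11 the log2 values fell to 4.44 and 5.15 (from 7.99 and 7.20). These values do not bound the difference from below. A single cell with a read held at least 89 reads of Cd36 or 146 of Lpl, far above the floor. The shares of moLCs with a read were 1.94% (0.236 to 6.84%) for both, below the upper limit of 4.56% in eLCs. Neither gene was read widely enough for the size rule. Of the other uptake genes, Lipa, lysosomal acid lipase, was at 20.8 and 12.8 CPM (0.70).

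The 3 moLCs with Cd36 or Lpl reads stood apart from the other moLCs in Cd207 as well. Their Cd207 level was 0 in moLC 11, 42.6 CPM in moLC 2 and 467 CPM in moLC 94, all below the median eLC (1448 CPM), whereas the next lowest moLC had 2000 CPM and the median moLC 23839 CPM. The lowest eLC had 76.5 CPM. All 3 had reads of Epcam, the gene of the sort marker CD326, at 112, 1077 and 1303 CPM. Ccr7, the chemokine receptor of migrating dendritic cells, was at 9601 CPM in moLC 11, 1187 CPM in moLC 2 and 0 in moLC 94. The LC marker list summed to 10321 CPM in moLC 11, the lowest of all moLCs (median 176355), to 93566 CPM in moLC 2 and to 111981 CPM in moLC 94. Cd74 and H2-Ab1 gave 77304 and 58190 of its 174511 CPM over all moLCs. The monocyte and macrophage list summed to 4944 CPM in moLC 2, the highest of all moLCs (median 1056), and to 118 CPM in moLC 11 and 980 CPM in moLC 94. In eLCs this list had a median of 1392 CPM and a highest cell of 5605 CPM, above moLC 2. In moLC 2 and moLC 94, 6690 and 7212 genes had a read, against a median of 4026 in moLCs, and 4642 had one in moLC 11. Whether any of these wells held more than 1 cell was not tested. Their Fabp5 reads numbered 6004 in moLC 11, 860 in moLC 2 and 488 in moLC 94. Without them, a choice made after seeing the data, Fabp5 was at 49.4 CPM in moLCs with a read in 25 of 100 cells, and the log2 ratio was 3.26 (3.63 on plate 1 and 3.62 on plate 2). Cd36 and Lpl then had no read in any cell.

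Apoe was the most abundant of the 9 genes in each origin, also per length (CPM per kilobase of exon, RPKM, of 132 in moLCs and 126 in eLCs, with Plin2 next at 29 and 13.4). It lies at chr7:19696109-19699188. It was read in 58 moLCs (56.3%) and 47 eLCs (59.5%). Over moLCs the level ran from 0 to 3481 CPM with a median of 64.2, and over eLCs from 0 to 1908 CPM with a median of 76.7. All but 2 moLCs lay within the range of the eLCs. The summed levels of 282 and 269 CPM gave a log2 ratio of 0.07 (0.05 to 0.08). The plates disagreed in sign, at -0.38 (292 against 380 CPM) on plate 1 and 0.44 (263 against 194 CPM) on plate 2, and leaving out moLC 62, with 9408 reads, turned the ratio of all cells to -0.09. No difference in Apoe between the origins held on both plates.

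Abca1 and Abcg1, the cholesterol exporters, also showed no level difference that held on both plates. Abca1 (chr4:53030787-53159895) was read in 10 moLCs (9.71%) and 7 eLCs (8.86%), with a highest cell of 261 CPM and 119 CPM and a median of 0 in each. Its summed levels were 6.71 and 4.76 CPM, a log2 ratio of 0.50 that was 0.81 on plate 1 and -2.67 on plate 2, where 2 moLCs held 68 reads in all. Without moLC 34, which had 894 of the 2015 moLC reads, it was -0.33.

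Abcg1 (chr17:31057675-31117988) was read in more moLCs than eLCs at nearly the same level. The moLCs with a read numbered 41 (39.8%, 30.3 to 49.9%) and the eLCs 21 (26.6%, 17.3 to 37.7%). The shares were 40.3 against 27.6% on plate 1 and 38.9 against 26% on plate 2. The thinned shares were 39.6 and 27.9%. The intervals of the shares overlapped. Of those 6522 genes, 200 (3.07%) had a share at least 10 percentage points higher in moLCs and higher on each plate, a rule chosen after seeing the data, and of the 9 genes Fabp5 and Abcg1 were among them. Over moLCs the Abcg1 level ran from 0 to 259 CPM and over eLCs from 0 to 652 CPM, with a median of 0 in each. The summed levels were 12.3 and 13.5 CPM, a log2 ratio of -0.14 that was 0.46 on plate 1 and -0.47 on plate 2. A single cell of plate 2, eLC 32, held 1340 of the 2946 eLC reads (45.5%), and without it the ratio was 0.72. Many cells had few Abcg1 reads, with a lowest count above 0 of 2 in each origin.

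**Figure D3:**
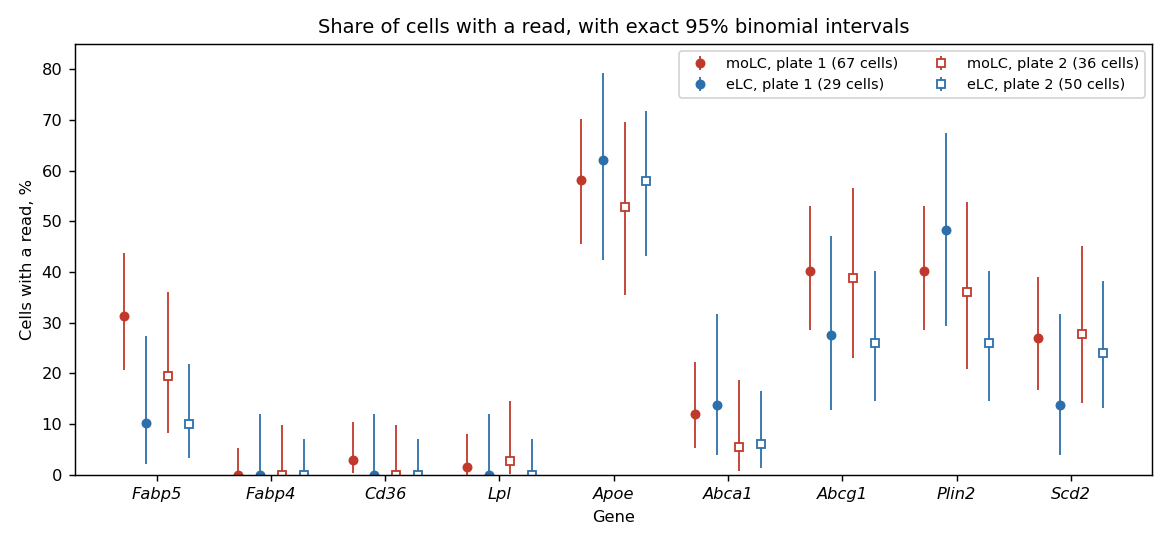
Share of cells with a read (y axis, %) for the 9 genes by origin and plate, with exact 95% binomial intervals; filled points are plate 1 and open points plate 2. The moLC points lie above the eLC points on each plate for Fabp5, Lpl, Abcg1 and Scd2, and the intervals overlap in every pair.

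Plin2, the droplet coat gene at chr4:86648386-86670060, came closest to the size rule of those that did not meet it. It was read in 40 moLCs (38.8%) and 27 eLCs (34.2%). Over moLCs the level ran from 0 to 1917 CPM and over eLCs from 0 to 434 CPM, with a median of 0 in each, and 7 moLCs were above the highest eLC. Its summed level of 101.96 CPM in moLCs was 2.16-fold that of eLCs, 47.1 CPM (log2 ratio 1.11, 1.08 to 1.15). It was 0.87 on plate 1 (126 against 69.3 CPM) and 0.80 on plate 2 (56.1 against 32.2 CPM), the same direction on each plate but short of 2-fold. Without moLC 8, the highest cell with 4812 reads, the ratio of all cells was 0.88. The plates differed in Plin2 within each origin by more than this, with log2 ratios of plate 1 over plate 2 of 1.17 in moLCs and 1.11 in eLCs, and plate 1 held more of the moLCs. The share of cells with a read did not share the direction on plate 1, where it was 40.3% in moLCs and 48.3% in eLCs. Gm12551, a pseudogene that shares 29 of 3496 stretches of 75 bases with Plin2, had 145 reads in moLCs and 3 in eLCs.

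Scd2, a stearoyl-CoA desaturase at chr19:44293674-44306864, was slightly higher in moLCs on each plate. It was read in 28 moLCs (27.2%) and 16 eLCs (20.3%). Over moLCs the level ran from 0 to 400 CPM and over eLCs from 0 to 292 CPM, with a median of 0 in each, and 2 moLCs were above the highest eLC. The summed levels of 26 and 19.1 CPM gave a log2 ratio of 0.44 (0.39 to 0.50), which was 0.44 on plate 1 and 0.68 on plate 2. It lay between 0.21 (without moLC 67) and 0.76 (without eLC 25) with each cell left out in turn.

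Few of the 8 genes had a read in the same cell, as each was read in only a part of the cells. The median moLC had a read of 2 of them (highest 5) and the median eLC of 1 (highest 4). Of the 36 cells with Fabp5, 17 also had Apoe, 13 Abcg1, 13 Plin2 and 13 Scd2. Over all moLCs and eLCs, Apoe was read in 56.3 and 59.5%, Abcg1 in 39.8 and 26.6%, Plin2 in 38.8 and 34.2%, and Scd2 in 27.2 and 20.3%. Whether the counts differ from those of genes read this widely but independently was not tested. Spearman's rho with the Fabp5 level over the 182 cells was between -0.11 (Apoe) and 0.26 (Cd36), and over all 28 pairs the highest was 0.50, between Cd36 and Lpl, which rests on moLC 11 as the only cell with both. These values share the zeros of sparse counts and the cells' depth, and are weak. The 5 genes whose level over the 182 cells was most like that of Fabp5, among 5988 genes read in at least 25% of cells, were Tbc1d9b (rho 0.34), Il4i1 (0.32), Bcat2 (0.31), Apbb2 (0.30) and Basp1 (0.26), against a median of 0.01 over those genes. Within moLCs the same 5 had rho between 0.34 and 0.42, and within eLCs, with 8 Fabp5 cells, between 0.05 and 0.19. The 5 were picked as the highest over these same cells, so neither these values nor their distance from the median is a test.

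Across the wider lipid pathways, 9 fixed lists held 132 genes, of which 68 were read in 25% or more of an origin's cells. Of these, 2 met the size rule (2.94%, beside 2.02% of all genes), Fabp5 and Scd1, both higher in moLCs, and none met it in the other direction. Fabp5 was chosen on this contrast and the lists with earlier results known, so nothing is read from this share. The median log2 ratio was -0.04 over the 68 genes (-0.06 on plate 1 and -0.13 on plate 2) and -0.10 over all 6522 (-0.07 and -0.09).

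Scd1, the desaturase next to Scd2 on chromosome 19, was the other lipid gene to meet the rule. Its summed levels were 39.3 CPM (moLCs) and 10.3 CPM (eLCs), and 37.9 and 17.7% of the cells had a read. The log2 ratio was 1.94, with 2.57 on plate 1 and 1.80 on plate 2, and stayed between 1.67 and 2.28 with each cell left out in turn. Scd1 shares 79 of 5461 stretches of 75 bases with Scd2, and 18 cells had reads of both. Scd3 and Scd4 share 51 and 24 such stretches with Scd2. Scd3 had 26 reads in moLCs and 3 in eLCs, and Scd4 had 2 reads in moLCs and 624 in 3 eLCs. Scd1 also stands in the sebocyte marker list, whose median was 0 in each origin and in which Mgst1, Awat2 and Elovl3 had no read in any cell.

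In the fatty acid synthesis and desaturation list, Scd1 was the only one of 10 genes past the rule. The most abundant, the elongases Elovl5 (236 and 249 CPM) and Elovl1 (210 and 240 CPM), had log2 ratios of -0.07 and -0.20. The cholesterol efflux list had none of 9 genes past the rule and a median of -0.04, and Npc2, which hands cholesterol out of the lysosome, was at 166 and 197 CPM (log2 ratio -0.24). The lipid droplet list had none of 9 past the rule and a median of -0.26. Its most abundant genes were Hilpda, a hypoxia-induced droplet gene (518 and 632 CPM, log2 ratio -0.29), and Pnpla2, the lipase ATGL (164 and 197 CPM, -0.26).

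No gene of the other lists met the rule. The cholesterol synthesis list (13 genes, median 0.06) was led by Hmgcs1 at 238 and 245 CPM and Msmo1 at 220 and 204 CPM, with log2 ratios of -0.04 and 0.11. The fatty acid oxidation list (15 genes, median -0.06) was led by Acsl5 at 225 and 195 CPM, with a log2 ratio of 0.21. Of the lipid-sensing nuclear receptors, Ppara and Pparg had no read in any cell, and the most abundant were Nr1h2, the receptor LXRβ (138 and 117 CPM, 0.25), and Rara (47.9 and 38.7 CPM, 0.31). The list of genes of Trem2-type macrophages (6 genes, median -0.05) was led by Lgals3 (2988 and 3003 CPM, -0.01) and Cd9 (1325 and 1631 CPM, -0.30).

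**Figure D4:**
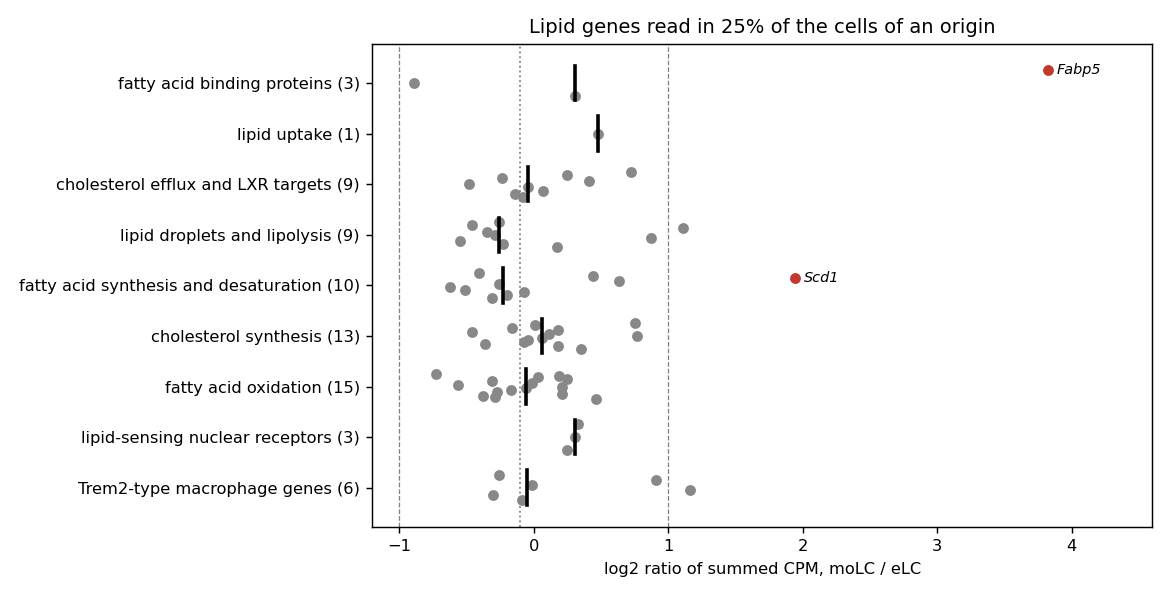
Log2 ratio of summed CPM, moLC over eLC (x axis), for the genes of 9 lipid lists read in 25% or more of an origin's cells, with their number in brackets; red, genes that met the size rule; black bar, list median; dotted line, median of all 6522 genes; dashed lines, 2-fold. Fabp5 at 3.82 and Scd1 at 1.94 are the genes that met the rule.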

How the data were processed

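Single LCs were index sorted from chimeric epidermis, and cDNA was made by Smart-Seq and sequenced paired-end. Per the submitters' processing notes, reads were aligned with STAR to mm10. The counting tool and gene annotation are not given in the sources used here. The authors deposited a table of unnormalized read counts, genes by cells. In 8 cells, 9 deposited values lie between whole numbers, and these columns, treated like expected counts, were rounded.

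Cells were grouped by labelled origin and plate, and 182 of 185 with at most 5% of reads on mitochondrial genes were kept, as in the methods of the study, whose Wilcoxon test on cells was left out here. For each origin the counts were summed over cells and scaled to CPM. Intervals are exact Poisson (sums), Clopper-Pearson (shares) and binomial (ratios), and Newcombe for the difference of shares. Where all cells of an origin lacked a read, 3 reads over the group stood in. RPKM used exon lengths of GENCODE gene models (GRCm38). No doublet caller was run on singly sorted cells. The members and lists were chosen with earlier results of these data known. The genes named were the 9 members, the genes of 9 lipid lists past the size rule or among the 2 most abundant of a list, the 5 genes most correlated with Fabp5, and near-identical copies; 2 genes that this rule names are not reported here. Others (Fabp7, Fabp9, Fabp12, Pmp2, Ppara, Pparg, Dmkn, Krt14, Krt5) were named after their values were seen. Marker lists (8) were summed per cell; the sums of the monocyte and macrophage list had a median of 1056 CPM in moLCs and 1392 CPM in eLCs. The size rule was run on simulated counts with the same detection in both origins and Poisson reads in each cell. These lack the concentration in few cells seen for Fabp5, so the run does not cover that case. Alternatives were other filters, scalings, weights, thinning and cells left out. Python 3.11.15 with numpy 2.4.6, pandas 2.3.3, scipy 1.17.1, statsmodels 0.14.6 and matplotlib 3.10.9 was used, and edgeR 4.0.16 in R 4.3.3 for TMM factors.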

Additional observations from a re-analysis of the deposited data

Results flagged for a closer look

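The 3 moLCs left out for their mitochondrial reads, all of plate 2, held reads of these genes, and these reads entered no comparison above. In moLC 68 (572708 reads, 9.97% mitochondrial) Fabp5 was at 4714 CPM, above the highest cell kept (2923 CPM), Cd36 at 754.3 CPM (against a highest of 470 CPM), Lpl at 185.1 CPM, Abca1 at 27.94 CPM and Scd2 at 13.97 CPM. This cell had no Cd207 read and 4830 CPM of Ccr7, and among the cells kept moLC 11 had no Cd207 read either. In moLC 82 (233438 reads, 14%) Fabp5 was at 34.27 CPM, from 8 reads, Cd36 at 171.4 CPM and Abca1 at 231.3 CPM, with no Cd207 read and 2245 CPM of Ccr7. In moLC 85 (920430 reads, 29.3%) Fabp5 was at 664.9 CPM, Apoe at 4.346 CPM, Abcg1 at 1076 CPM (against a highest of 652 CPM) and Scd2 at 1495 CPM (against a highest of 400 CPM), with 22 Cd207 reads and 532 CPM of Ccr7. Fabp5 was read in each of the 3 cells, and Cd36 in 2 of them. No eLC was left out, so there is no eLC of this kind to set beside them.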

How the results depend on the processing

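Fabp5 stayed over 2-fold higher in moLCs under every setting tried. From 3.82, its log2 ratio went to 4.02 with no mitochondrial filter, 4.16 and 3.99 with at most 2.5% and 10% of mitochondrial reads, 4.15 with equal weight for each cell, 3.92 with TMM and 3.92 with median-of-ratios factors, 4.24 in thinned cells, 4.73 on plate 1 and 3.66 on plate 2. It was 3.37 without the moLC and 4.18 without the eLC that had the most reads, which were also the lowest and highest values with each cell left out, and 3.26 without the 3 moLCs of low Cd207 (chosen after seeing the data). The number of genes past the size rule, 1, became 2 at 1.5-fold (with Plin2; 7.68% of all genes passed), 2 with no minimum share of cells (with Lpl; 8.25%) and 0 with a read in at least 50% of cells (0.63%). Plin2 and Scd2 stayed higher in moLCs under each of these settings. Apoe turned in sign with at most 2.5% of mitochondrial reads (-0.03) and without the 3 moLCs (-0.06), and Abcg1 with no mitochondrial filter (0.20) and with at most 2.5% (0.68), and neither was over 2-fold in any of these. Cd36 and Lpl gave no ratio without the 3 moLCs of low Cd207. TMM factors shifted every log2 ratio by 0.10. No paired analysis was possible because the cells' numbers only name them. With 1 sample per origin, differences between animals could not be measured.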
